A study of Rattus norvegicus with 2 samples.

Results

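The secreted mucus proteins of goblet cells were followed through the epithelium of the rat proximal jejunum. The members were chosen by gene symbol, and 7 of the 8 symbols (Muc2, AABR07006030.1, Fcgbp, Zg16, Clca1, Tff3, Agr2 and Spink4) had a row among the 32883 genes of the count matrices. No row carried the symbol Muc2. A RefSeq gene table lists AABR07006030.1 (ENSRNOG00000046602) as a synonym of Muc2, so that row is called Muc2 throughout, and the name rests on that synonym alone. The 7 members were measured in 2 fasted adult male Sprague Dawley rats of 6 to 8 weeks and 180 to 200 g. Each animal gave 1 droplet-based single-cell library of jejunal epithelium, released with EDTA and dispase. The labels name no treatment or altered allele for either rat, so the comparisons are between cell classes, with the rats as replicates (n = 2).

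Goblet cells fill most of their cytoplasm with granules of mucin, and release them as a gel that keeps bacteria and food away from the gut wall. Muc2 is the gel-forming mucin of the intestine, which is folded and dimerized in the endoplasmic reticulum, heavily O-glycosylated in the Golgi and packed into granules. Fcgbp is a large mucus protein rich in von Willebrand factor D domains, and Zg16 is a lectin-like granule protein that binds bacterial cell walls. Clca1 is a secreted metalloprotease that acts on the mucus network. Tff3 is a small trefoil peptide linked to repair of the epithelium. Agr2 is a protein disulfide isomerase of the endoplasmic reticulum that is needed for Muc2 to be made. Spink4 belongs to a family of serine protease inhibitors.

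The proximal promoters are shown for 4 members with contrasting patterns over the goblet classes, Agr2 and Clca1 on one side and Muc2 and Fcgbp on the other. Each sequence is the 250 bases before the RefSeq start of the gene, read 5′ to 3′ on the gene's strand of the GRCr8 assembly. The counts were made on the rn6 build, so these coordinates do not apply to the matrices. Capitals mark matches on either strand of CAGNTG, an E-box of the kind bound by Atoh1 and other basic helix-loop-helix factors, and of AGATAA, which is known as the core motif of GATA factors. The Agr2 window (chr6:58435658-58435907, + strand) held 2 E-boxes and the Clca1 window (chr2:236624715-236624964, - strand) held 2. The Fcgbp window (chr1:92502519-92502768, + strand) held 2 E-boxes, while the Muc2 window (chr1:206228785-206229034, + strand) held 1 E-box and 2 GATA motifs.
Agr2: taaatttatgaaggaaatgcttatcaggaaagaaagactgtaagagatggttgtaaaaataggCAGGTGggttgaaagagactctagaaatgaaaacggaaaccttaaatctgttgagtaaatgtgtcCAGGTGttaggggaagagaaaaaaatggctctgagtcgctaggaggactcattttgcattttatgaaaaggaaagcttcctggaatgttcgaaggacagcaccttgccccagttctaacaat
Clca1: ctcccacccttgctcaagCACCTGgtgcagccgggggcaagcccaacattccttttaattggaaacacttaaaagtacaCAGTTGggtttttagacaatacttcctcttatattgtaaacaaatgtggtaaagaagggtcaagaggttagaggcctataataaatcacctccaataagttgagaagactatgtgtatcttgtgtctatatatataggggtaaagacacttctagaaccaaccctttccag
Fcgbp: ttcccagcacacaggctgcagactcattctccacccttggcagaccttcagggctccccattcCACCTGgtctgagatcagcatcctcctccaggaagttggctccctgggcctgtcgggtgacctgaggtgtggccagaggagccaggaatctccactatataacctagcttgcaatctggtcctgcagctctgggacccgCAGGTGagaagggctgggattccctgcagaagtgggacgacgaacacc
Muc2: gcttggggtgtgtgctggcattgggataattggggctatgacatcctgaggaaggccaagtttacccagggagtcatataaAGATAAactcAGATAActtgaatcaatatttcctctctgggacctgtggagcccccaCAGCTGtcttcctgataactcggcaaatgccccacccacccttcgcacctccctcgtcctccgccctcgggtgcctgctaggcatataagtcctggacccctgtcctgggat
The Tff3 window held neither motif. The 2 windows listed for Spink4 held 0 and 3 E-boxes and 1 and 2 GATA motifs, and Zg16 was not matched in the promoter table. Of 33469 windows of the same length, 43.3% held the E-box and 10.3% the GATA motif, so a match is no mark of these genes. Matches of letters describe the windows and show no binding.

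Rat 1 gave 12033 barcodes with 99986348 unique molecular identifiers (UMIs, each counting 1 captured transcript), and rat 2 gave 8252 barcodes with 66469907 UMIs. The filter of over 5000 UMIs, over 200 and under 5800 genes and at most 40% mitochondrial UMIs left 5988 cells of rat 1 (median 12200 UMIs) and 2230 of rat 2 (median 13962 UMIs). The rats shared 4 of these cell barcodes. Clusters were named from other genes than the members, and 3 of them carried goblet markers. The cycling goblet progenitor-like class held 183 cells of rat 1 and 15 of rat 2. The other goblet-like cells fell into goblet-like 1, with 138 cells of rat 1 and 47 of rat 2, and goblet-like 2, with 41 and 92 cells. These names were told apart by the level of stem markers, which was higher in goblet-like 1. The 7 stem markers summed to 573.7 and 286.3 CPM (UMIs per 1000000 UMIs) in goblet-like 1 and to 62.5 and 2.44 CPM in goblet-like 2. Spdef, a goblet transcription factor, stood at 290.1 and 485.9 UMIs per 1000000 UMIs (CPM) in goblet-like 1 of rat 1 and rat 2 and at 267.8 and 313.5 CPM in goblet-like 2, against 1.81 and 0.882 CPM in enterocyte-like cells. Mki67, a proliferation marker, stood at 280.1 and 426.8 CPM in the progenitors, 50.2 and 6.57 CPM in goblet-like 1, and 14.9 and 0 CPM in goblet-like 2. Spdef and Mki67 were among the genes that named these clusters, so their levels were partly built in. The comparison classes were 1167 and 34 stem-like, 3624 and 1109 enterocyte-like, 21 and 11 enteroendocrine (EEC)-like, 16 and 119 tuft-like and 8 and 77 CFTR high expresser (CHE)-like cells of rat 1 and rat 2. The stem-like clusters were led by ribosomal and cycling genes rather than by stem markers. Among cells first placed with the stem-like class of rat 2, 99 of 133 carried at most 10 UMIs of 5 epithelial genes and were set aside. UMIs count transcript 3′ ends and are not scaled by length, so levels are shares of a class's UMIs. Cells of 1 animal share a library, so tests compare UMIs summed per rat and class. The classes were cut from the other transcripts of these same cells, so a difference between them is not independent of the clustering.

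The members took up a large share of all transcripts in goblet-like 2 cells. In rat 1 the members supplied between 0.353% and 50.1% of a goblet-like 2 cell's UMIs, with a median of 40.3%. In rat 2 the share ran from 17.2% to 50.9%, with a median of 39.6%. In goblet-like 1 cells the median was 13.4% in rat 1 (0.188% to 35.1%) and 15.5% in rat 2 (4.53% to 46.3%). In the progenitors it was 4.81% (0.802% to 17.8%) and 6.85% (3.59% to 10.1%). The same genes supplied a median of 0.0489% and 0.0352% of the UMIs of stem-like cells, 0.0308% and 0.0150% of those of enterocyte-like cells and 0.301% and 0.431% of those of EEC-like cells. The medians therefore had the same order in both rats from progenitors through goblet-like 1 to goblet-like 2, while the ranges of single cells overlapped between neighbouring classes in this order. In rat 2 the progenitors lay below every goblet-like 2 cell, and in rat 1 these ranges overlapped.

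**Figure D1:**
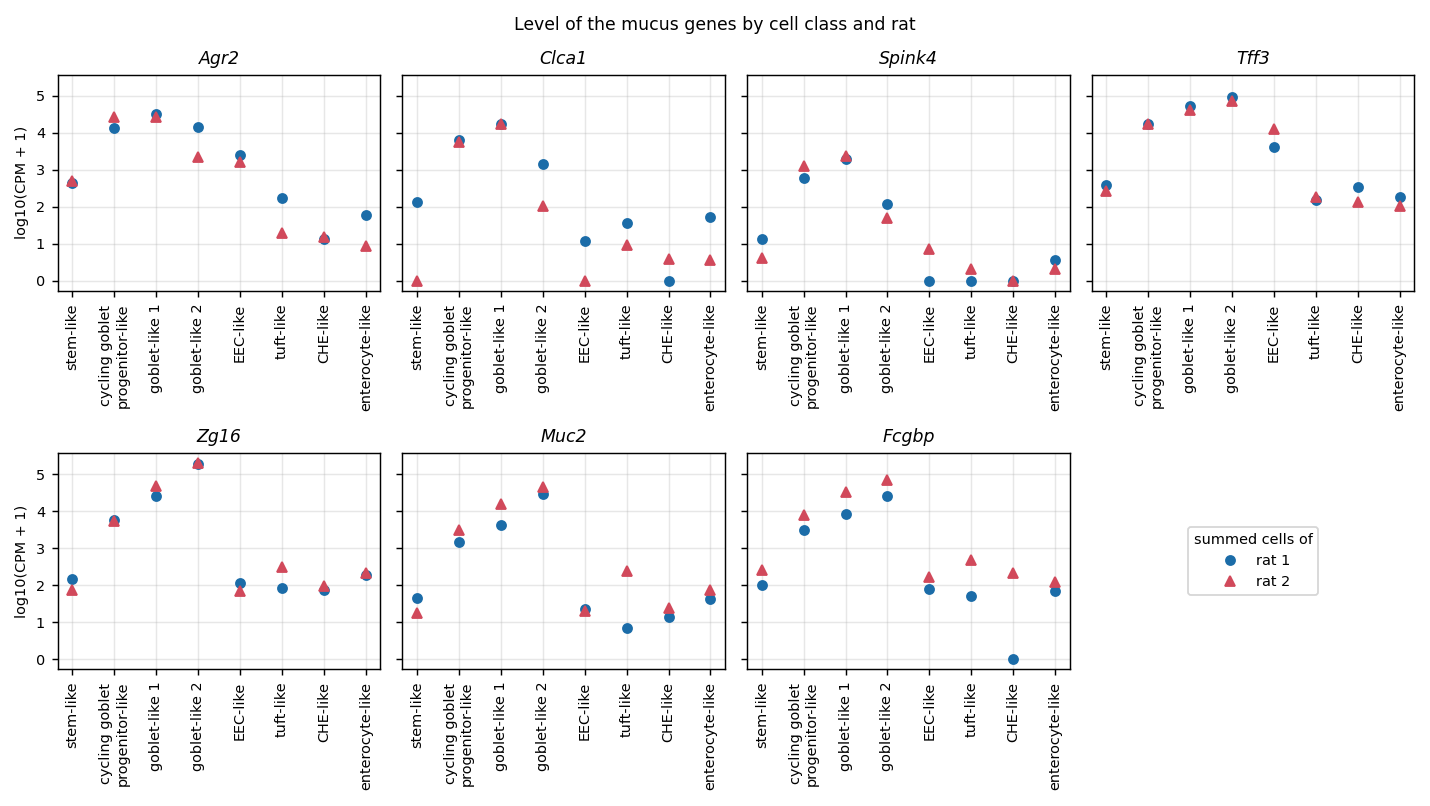
Level of each member as log10(CPM + 1) (vertical axis) in the summed cells of 8 classes (horizontal axis), with a circle for rat 1 and a triangle for rat 2. Agr2, Clca1 and Spink4 sit higher in goblet-like 1 than in goblet-like 2, whereas Zg16, Muc2, Fcgbp and Tff3 sit highest in goblet-like 2, up to 203421 CPM for Zg16 in rat 2.

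Muc2, Zg16, Fcgbp and Tff3 had their highest level of each rat in goblet-like 2. Muc2 measured 28361 CPM in goblet-like 2 of rat 1 and 45184 CPM in that of the other animal, 4229 and 15251 CPM in goblet-like 1, and 1485 and 3045 CPM in the progenitors. By cell, Muc2 ran from 1 to 414 UMIs with a median of 258 in goblet-like 2 of rat 1, and from 182 to 996 UMIs with a median of 628.5 in rat 2. The goblet-like 1 cells of rat 1 held 0 to 236 Muc2 UMIs (median 24.0) and those of rat 2 held 20 to 945 (median 173). Zg16, the granule lectin, measured 5727 and 5435 CPM in the progenitors, 25402 and 48878 CPM in goblet-like 1, and 184907 and 203421 CPM in goblet-like 2. It alone made up 53.0% and 51.6% of all member UMIs of goblet-like 2. Single goblet-like 2 cells held up to 2658 Zg16 UMIs in rat 1 and 6499 in rat 2, with medians of 1571 and 2501. Fcgbp measured 3151 and 7699 CPM in the progenitors, 8315 and 33259 CPM in goblet-like 1, and 25486 and 69590 CPM in goblet-like 2. For Fcgbp the goblet-like 1 sum of rat 2 was above the goblet-like 2 sum of rat 1, so the sums of these classes overlapped between animals. Tff3, the trefoil peptide, measured 17525 and 17210 CPM in the progenitors, 53157 and 41412 CPM in goblet-like 1, and 94536 and 73643 CPM in goblet-like 2, and every one of the 516 cells of these classes held a Tff3 UMI.

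Agr2, Clca1 and Spink4 had another order. Agr2, the disulfide isomerase, measured 13348 and 26026 CPM in the progenitors of rat 1 and rat 2. It stood at 33068 and 27051 CPM in goblet-like 1 and at 14122 and 2197 CPM in goblet-like 2. Its median was 276 and 327 UMIs a cell in goblet-like 1 but 85.0 and 7.5 UMIs in goblet-like 2. Clca1, the metalloprotease, measured 6553 and 5821 CPM in the progenitors, 17393 and 17153 CPM in goblet-like 1 and 1393 and 103.4 CPM in goblet-like 2. The median goblet-like 2 cell held 1 Clca1 UMI in either rat, against 154.5 and 245 UMIs in goblet-like 1. Spink4, the inhibitor family member, measured 601.8 and 1259 CPM in the progenitors, 2006 and 2302 CPM in goblet-like 1 and 119.0 and 48.0 CPM in goblet-like 2. It was the scarcest member by UMIs, with a median of 14.0 and 12.0 UMIs in goblet-like 1 cells and 0 in goblet-like 2 cells. For Clca1 and Spink4 both rats' goblet-like 2 sums lay below every goblet-like 1 and progenitor sum.

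**Figure D2:**
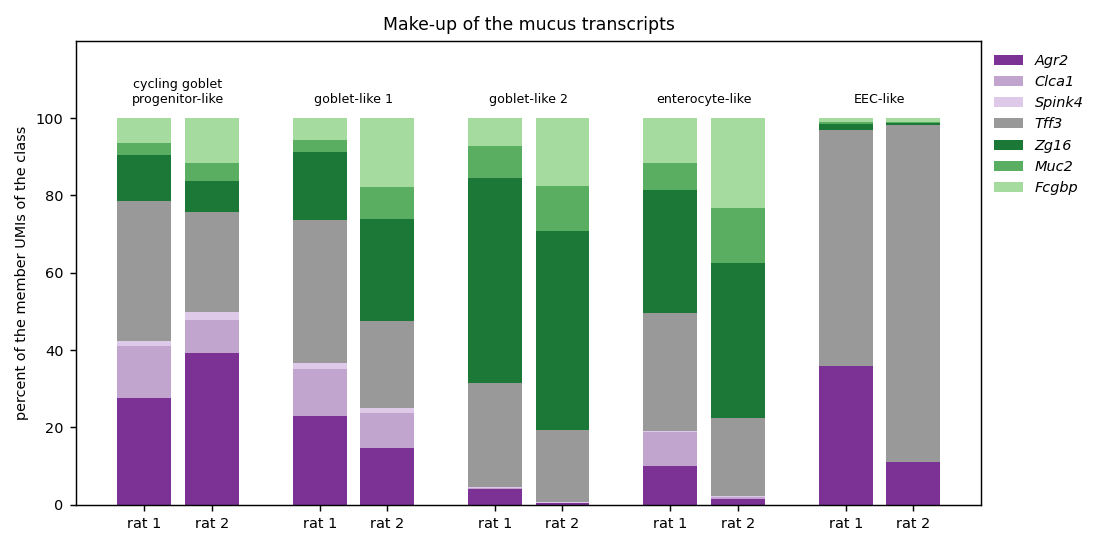
Percent of the member UMIs that came from each member (stacked bars, vertical axis) in 5 classes of rat 1 and rat 2. Zg16 fills 53.0% and 51.6% of the bars of goblet-like 2, Agr2 fills 27.6% and 39.1% of the bars of the progenitors, and Tff3 fills 60.9% and 87.2% of the bars of EEC-like cells.

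Enterocyte-like cells should lack mucus genes and served as the comparison class, although the members supplied up to 9.28% of the UMIs of a single cell named so in rat 1 and 8.42% in rat 2. Against them all 7 members passed the test as higher in goblet-like cells, with log2 fold changes from 7.25 for Clca1 to 9.10 for Agr2. Of the 8801 genes tested, 10.1% passed as higher in this comparison. For Muc2 the log2 fold change was 8.53 ± 1.44 (SE; edgeR adjusted p = 0.00069), and for Clca1 it was 7.25 ± 1.88 (edgeR adjusted p = 0.013). Goblet-like cells here are the mean of goblet-like 1 and goblet-like 2, each weighing the same. Against the mean of all other epithelial classes, progenitors included, the 7 members again passed as higher, beside 10.3% of all genes. The log2 fold changes then ran from 6.15 ± 0.57 for Agr2 (edgeR adjusted p = 5.9e-06) to 8.94 ± 0.52 for Zg16 (edgeR adjusted p = 1.4e-07). These comparisons share the goblet-like sums, so the second adds no independent evidence.

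Goblet-like 2 was compared with goblet-like 1 directly. This comparison, those of the progenitors with either goblet-like class alone and that of EEC-like cells were added after the clusters were seen. Zg16 passed as higher in goblet-like 2, by 3.20 ± 0.93 on the log2 scale (edgeR adjusted p = 0.044), and Spink4 passed as lower, by -4.01 ± 0.72 (edgeR adjusted p = 0.015). Of all genes tested, 4.43% passed as higher and 5.59% as lower. The other members did not pass, with Muc2 at 2.78 ± 1.13 (adjusted p = 0.12), Fcgbp at 2.10 ± 1.31 (0.29), Tff3 at 1.57 ± 0.75 (0.17), Clca1 at -3.93 ± 1.65 (0.13) and Agr2 at -1.26 ± 1.02 (0.43). All 7 had the same sign in rat 1 and rat 2, but the sizes of several differed. Without TMM scaling, rat 1 and rat 2 gave Zg16 values of 2.86 and 2.06, both below the fitted one. Spink4 lay at -4.07 and -5.57, Clca1 at -3.64 and -7.37 and Agr2 at -1.23 and -3.62, whereas Tff3 lay at 0.83 in either rat. The classes come from the same animals, and with the rat as a block edgeR called 6 of the 7 members, beside 11.7% of all genes as higher and 12.2% as lower. Under the block Zg16 (adjusted p = 0.0037), Muc2 (0.017), Fcgbp (0.037) and Tff3 (0.048) were higher, and Clca1 (0.0051) and Spink4 (0.00055) were lower, while Agr2 (0.15) did not pass. The Zg16 call was lost in 5 of the 15 alternatives with a test, at adjusted p from 0.05 to 0.07, among them the removal of cells rich in Paneth transcripts and of the cell with the most member UMIs in each sum. The Spink4 call was kept in every alternative that gave a test.

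**Figure D3:**
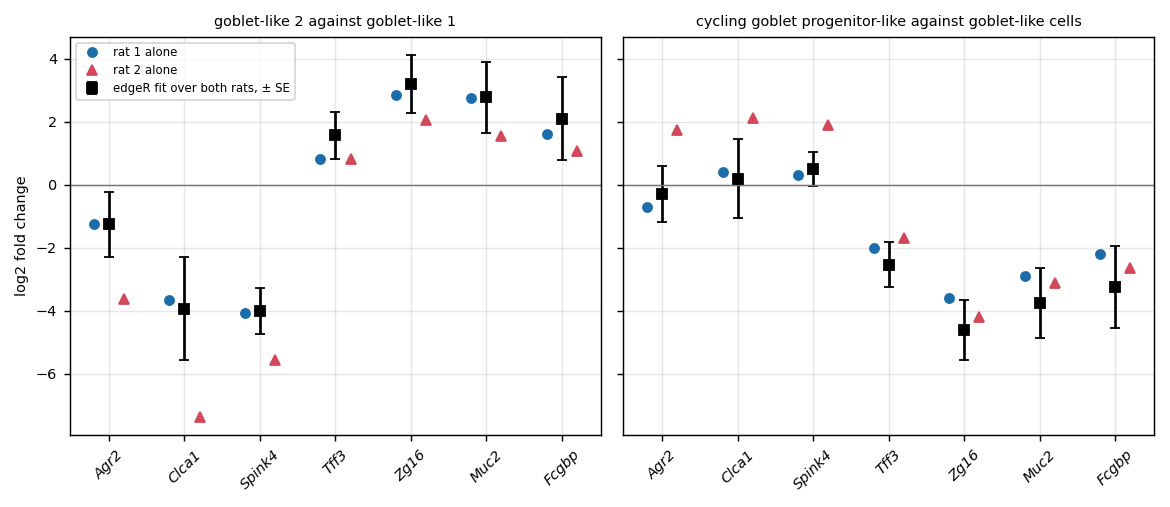
Log2 fold change (vertical axis) of each member (horizontal axis) in goblet-like 2 against goblet-like 1 (left) and in cycling goblet progenitor-like against goblet-like cells (right). Black squares give the edgeR fit with its SE, circles and triangles the values of rat 1 and rat 2 without TMM scaling. On the left Zg16 lies at 3.20 and Spink4 at -4.01, and on the right Zg16 lies at -4.59.

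The same split was then described cell by cell, in the cells that gave the class sums. With every cell thinned to 5000 UMIs, UMIs of Agr2, Clca1 and Spink4 together outnumbered those of Zg16, Muc2 and Fcgbp in 106 of 138 goblet-like 1 cells of rat 1 (76.8%, exact 95% interval 68.9% to 83.6%) and in 24 of 47 of rat 2 (51.1%, 36.1% to 65.9%). In goblet-like 2 this held for 2 of 41 cells of rat 1 (4.88%, 0.596% to 16.5%) and 0 of 92 cells of rat 2, which allows up to 3.93%. In the progenitors it held for 151 of 183 cells (82.5%, 76.2% to 87.7%) and 14 of 15 cells (93.3%, 68.1% to 99.8%). These sums of 3 genes were formed after the levels were seen, so the shares are a description, and the intervals cover counting error only. Most goblet-like 1 cells carried both sums, since 131 of 138 and 40 of 47 cells held at least 10 UMIs of each.

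**Figure D4:**
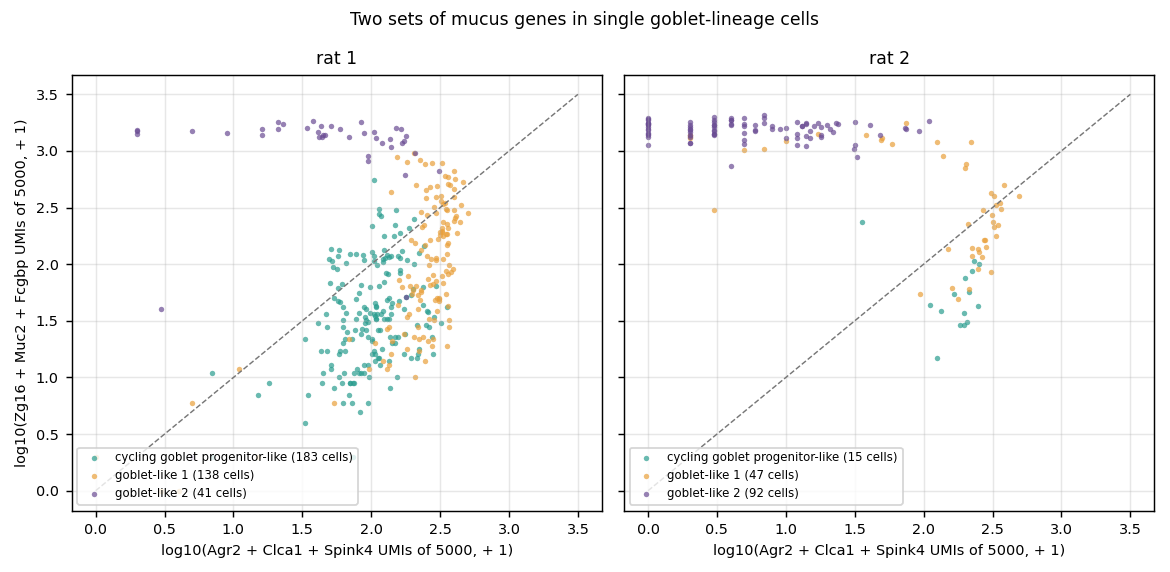
UMIs of Agr2, Clca1 and Spink4 (horizontal axis) against UMIs of Zg16, Muc2 and Fcgbp (vertical axis) in single cells thinned to 5000 UMIs, as log10 of the count plus 1, for rat 1 (left) and rat 2 (right). The dashed line marks equal counts. All but 2 of the 133 goblet-like 2 cells lie above it, and 165 of the 198 progenitor-like cells lie below it.

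Among cells of 1 class and rat, Muc2, Zg16, Fcgbp and Tff3 varied together in goblet-like 1. Spearman's rho of Zg16 with Muc2 was 0.90 over 138 cells of rat 1 and 0.88 over 47 cells of rat 2, and that of Fcgbp with Tff3 was 0.87 and 0.86. Agr2 stood apart from them, at a rho with Zg16 of 0.18 in rat 1 and -0.53 in rat 2. Clca1 differed between the animals, since its rho with Zg16 was 0.70 in rat 1 and -0.43 in rat 2. Clca1 and Spink4 had a rho of 0.50 and 0.73, Agr2 and Spink4 one of 0.41 and 0.57, and Agr2 and Clca1 one of 0.15 and 0.59. In goblet-like 2 the relation of Zg16 with Muc2 was weak and differed in sign, at 0.26 over 41 cells and -0.38 over 92 cells. In the progenitors Fcgbp and Clca1, which were on opposite sides in the comparison of the goblet-like classes, had a rho of 0.71 over 183 cells and 0.70 over 15 cells. The goblet-like 1 class was not alike in the animals. With cells thinned to 5000 UMIs, 14 of the 47 goblet-like 1 cells of rat 2 held over 1000 UMIs of Zg16, Muc2 and Fcgbp together, with a median of 26.5 UMIs of Agr2, Clca1 and Spink4, as did 33 of 41 and 90 of 92 goblet-like 2 cells (medians 44.0 and 4.0). None of the 138 goblet-like 1 cells of rat 1 did, the highest holding 961. The limit of 1000 was chosen after the values were seen, and the part of these cells in the negative rho of Agr2 and Clca1 in rat 2 was not tested. The cells behind each rho share a library, a thinned depth and a fixed total, and no test was made.

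Cycling goblet progenitors carried every member. With cells thinned to 5000 UMIs, each member had a UMI in at least 85.3% of progenitor-like cells of rat 1 and at least 73.3% of those of rat 2. Against stem-like cells Zg16 (log2 fold change 5.60 ± 1.04, edgeR adjusted p = 0.023), Spink4 (6.60 ± 0.82, edgeR adjusted p = 0.0039) and Tff3 (5.69 ± 0.89, edgeR adjusted p = 0.011) passed as higher, beside 0.693% of all genes. Muc2 lay at 6.15 ± 1.32 (adjusted p = 0.052), Agr2 at 5.41 ± 1.22 (0.069), Clca1 at 6.38 ± 1.85 (0.28) and Fcgbp at 4.99 ± 1.49 (0.31). The stem-like sum of rat 2 held 0 Clca1 UMIs and 2 Spink4 UMIs. Rat 1 and rat 2 gave values of 5.60 and 13.5 for Clca1 and of 5.56 and 8.38 for Spink4, so the sizes of these changes were not settled. With the rat as a block all 7 passed, at edgeR adjusted p from 0.00014 to 0.0031, beside 1.56% of all genes. Of the 2267 Zg16 UMIs in the progenitors of rat 2, 81.8% came from 1 of the 15 cells, and the median progenitor held 12.0. Without that cell the sum was 1172 CPM, against 5435 CPM with it. Without the cell with the most member UMIs in each sum, Zg16 lay at 4.82 (adjusted p = 0.071), and it also lost its call in 6 other alternatives (adjusted p 0.056 to 0.70). The limit of 20% on mitochondrial UMIs ended the Tff3 call as well (4.49, adjusted p = 0.21).

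Against goblet-like cells, the progenitors were lower in Zg16 by -4.59 ± 0.95 on the log2 scale (edgeR adjusted p = 0.014), in Muc2 by -3.75 ± 1.12 (edgeR adjusted p = 0.039) and in Tff3 by -2.53 ± 0.72 (edgeR adjusted p = 0.034). Of all genes, 5.45% passed as lower. Fcgbp lay at -3.25 ± 1.30 (adjusted p = 0.096, and 0.0044 with the rat as a block). Agr2 (-0.29 ± 0.88, adjusted p = 0.86), Clca1 (0.20 ± 1.26, 0.94) and Spink4 (0.49 ± 0.54, 0.55) did not pass, and rat 1 and rat 2 gave Agr2 values of -0.70 and 1.76, so its direction was not settled. Nor was that of Clca1, which was negative in 6 alternatives (down to -0.65). The Tff3 call was lost without TMM scaling (-1.86, adjusted p = 0.062) and in 2 other alternatives (adjusted p 0.053 and 0.096). The goblet-like mean joins classes with different make-up. Against goblet-like 2 alone Zg16 (-6.19 ± 1.07, edgeR adjusted p = 0.0028), Muc2 (-5.14 ± 1.26, 0.010), Fcgbp (-4.30 ± 1.44, 0.036) and Tff3 (-3.32 ± 0.80, 0.0096) passed as lower, beside 14% of all genes, and Spink4 (2.50 ± 0.68, 0.017) passed as higher, beside 17.6%. The Fcgbp call was lost without TMM scaling (edgeR adjusted p = 0.066) and the Spink4 call with no upper gene limit (0.14). Clca1 lay at 2.16 ± 1.53 (adjusted p = 0.29) and passed with the rat as a block (0.023). Agr2 lay at 0.34 ± 1.01 (0.83), with values of -0.081 in rat 1 and 3.57 in rat 2, so its direction was not settled here either. Against goblet-like 1 alone edgeR called 0 of 8801 genes, 762 genes had an unadjusted p under 0.05, and DESeq2 called 38 genes, of which Zg16 was 1 (adjusted p = 0.0006). The values of all 7 members against goblet-like 1 were negative in either rat, and the fitted ones ran from -0.92 ± 1.02 for Agr2 to -3.00 ± 0.92 for Zg16, and Zg16 passed with the rat as a block (adjusted p = 0.048).

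Outside the goblet lineage, Agr2 and Tff3 stood farthest above the enterocyte level. With cells thinned to 5000 UMIs, a Zg16 UMI was seen in 38.9% of enterocyte-like cells of rat 1 and 32.9% of those of rat 2, and a Spink4 UMI in 1.32% and 0.631%. Without thinning these shares were 65.7% and 73.4% for Zg16 and 2.98% and 2.34% for Spink4, at median depths of 12136 and 24741 UMIs a cell. The median enterocyte-like cell held 1 Zg16 UMI. A few cells weighed on these sums, since 1 of the 1109 enterocyte-like cells of rat 2 held 25.8% of the Muc2 UMIs, 1 held 22.8% of the Fcgbp UMIs and 1 held 21.1% of the Zg16 UMIs, and in rat 1 the highest cell held 13.4% of those of Zg16. Without the highest cell, enterocyte-like cells of rat 2 held 53.8 CPM of Muc2 in place of 72.4 CPM and 163.2 CPM of Zg16 in place of 206.6 CPM. Goblet-like 1 stood 133.1 and 236.5 times above enterocyte-like cells in Zg16 and 100.5 and 210.7 times in Muc2, but 556.5 and 3580 times in Agr2 and 329.7 and 6675 times in Clca1. Goblet-like 2 stood 968.5 and 984.4 times above enterocyte-like cells in Zg16 and 26.4 and 40.2 times in Clca1. In the enterocyte-like cells of rat 2, Agr2 and Clca1 made up 1.47% and 0.50% of the member UMIs, against 9.91% and 8.80% in those of rat 1, so these sums differed in make-up between the animals. Goblet-like 2 supplied 41 of 179 goblet-like cells in rat 1 and 92 of 139 in rat 2, and the part of this in that difference was not tested.

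EEC-like cells of rat 1 and rat 2 carried Tff3 at 4167 and 12725 CPM and Agr2 at 2450 and 1610 CPM. These levels were 22.9 and 121.9 times the enterocyte level for Tff3 and 41.2 and 213.1 times for Agr2. Both passed as higher against enterocyte-like cells, Agr2 by 5.85 ± 1.25 (edgeR adjusted p = 0.0050) and Tff3 by 5.66 ± 0.89 (edgeR adjusted p = 0.00070), beside 9.62% of all genes. The other members did not pass, and Zg16 lay at 0.582 and 0.341 and Muc2 at 0.528 and 0.266 times the enterocyte level. A Tff3 UMI was seen in 20 of 21 and 10 of 11 thinned EEC-like cells, against 45.7% and 23.6% of enterocyte-like cells, and an Agr2 UMI in 15 of 21 and 5 of 11, against 19.2% and 3.88%. The levels were uneven, since 1 cell of rat 2 held 74.9% of the 251 Agr2 UMIs and 1 cell held 44.2% of the 1984 Tff3 UMIs. Without the highest cell rat 2 kept 481.9 CPM of Agr2 and 8475 CPM of Tff3. Without the cell with the most member UMIs in each sum both calls held (Agr2 5.21, adjusted p = 0.022, and Tff3 4.87, adjusted p = 0.0016), and both were lost at the 20% limit on mitochondrial UMIs (adjusted p = 0.067 and 0.095). Chga, an enteroendocrine granule protein, stood at 9512 and 18857 CPM in these cells, and Spdef had no UMI there. The 7 goblet markers measured, Spdef among them, summed to 88.9 and 153.9 CPM, with 2 and 3 of them seen. In enterocyte-like cells they summed to 12.05 and 4.56 CPM. The part of goblet transcripts in the EEC-like values was not tested.

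In stem-like cells Agr2 was 7.39 and 64.3 times the enterocyte level, at 439.0 and 486.1 CPM. In rat 1 an Agr2 UMI was seen in 62.5% of thinned stem-like cells, against 19.2% of enterocyte-like cells. In rat 2 the shares were 41.2% of 34 cells and 3.88%, and 1 cell held 60.4% of the 298 Agr2 UMIs of that sum, without which the level was 197.5 CPM. The stem-like sum of rat 2 also held 57 UMIs of the tuft marker Dclk1 and 37 UMIs of the immune marker Ptprc, beside 13 and 34 UMIs in the much larger sum of rat 1, and their part in these values was not tested. Tff3 was 2.16 and 2.63 times the enterocyte level, and in rat 2 1 of the 34 cells held 44.6% of its UMIs, without which the level was 159.4 CPM in place of 274.0 CPM. Spink4 was 4.76 and 3.15 times, the latter from 2 UMIs in rat 2 with an interval of 0.363 to 12.5. Clca1 was 2.555 times in rat 1 and had 0 UMIs in rat 2, which allows up to 2.41 times. Fcgbp was 1.46 and 2.08 times, and 1 cell held 52.9% of its UMIs in rat 2. Muc2 in stem-like cells was 1.02 and 0.225 times and Zg16 0.786 and 0.363 times the enterocyte level, ratios that rest on the uneven enterocyte-like sums given above. Tuft-like cells of rat 2 had 3.27 times the enterocyte level of Muc2 and 3.86 times that of Fcgbp, and 1 cell held 84.5% and 1 cell 73.7% of those UMIs. The 16 tuft-like cells of rat 1 lay the other way, at 0.144 times for Muc2 (1 UMI, interval 0.00364 to 0.803) and 0.697 times for Fcgbp (8 UMIs, 0.301 to 1.38). In CHE-like cells of rat 2, Fcgbp was 1.82 times the enterocyte level (217.8 CPM), with 9.69% of the UMIs in the highest cell, and a Fcgbp UMI was seen in 58.4% of thinned cells against 17.7% of enterocyte-like cells. The share was also 52.1% in tuft-like, 41.2% in stem-like and 36.4% in EEC-like cells of that rat. Their median depths were 7649, 18474 and 12853 UMIs, against 13342 in CHE-like and 24741 in enterocyte-like cells. Without thinning, the shares were 62.2%, 55.9% and 81.8%, against 85.7% in CHE-like and 51.2% in enterocyte-like cells. CHE-like cells of rat 2 held a mean of 2.948 Fcgbp UMIs and enterocyte-like cells 2.816. The part of depth in these differences was not tested. In the 8 CHE-like cells of rat 1, 0 Fcgbp UMIs were counted, which allows up to 0.659 times the enterocyte level.

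**Figure D5:**
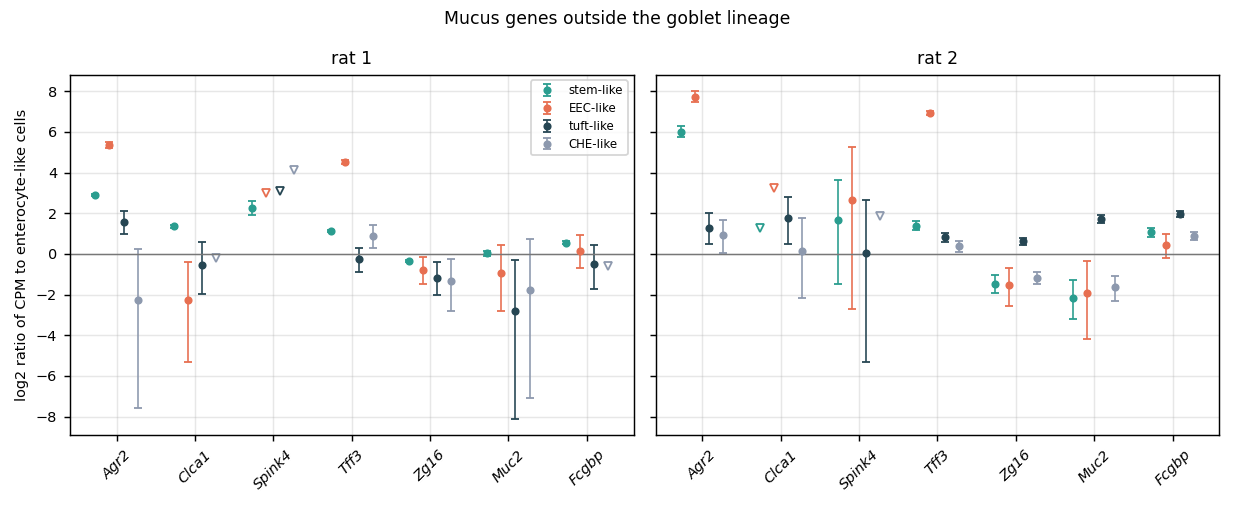
Log2 ratio of the CPM of stem-like, EEC-like, tuft-like and CHE-like cells to that of enterocyte-like cells (vertical axis) for each member (horizontal axis), for rat 1 (left) and rat 2 (right). Bars are exact 95% intervals of counting, and open triangles mark the upper limit where no UMI was counted. Agr2 and Tff3 of EEC-like cells lie highest among the ratios with UMIs in either rat, and Agr2 of stem-like cells lies at 7.39 times the enterocyte level in rat 1 and 64.3 times in rat 2, where 1 cell held 60.4% of its UMIs.

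The rats differed in the level of some members within a class, with 1 library each and so no test. Fcgbp was higher in rat 2 in the progenitors (2.44 times), goblet-like 1 (4.00 times) and goblet-like 2 (2.73 times), and Muc2 was higher in the same classes (2.05, 3.61 and 1.59 times). Agr2 was 1.95 times as high in the progenitors of rat 2 and 0.156 times as high in its goblet-like 2 cells. Clca1 was within 0.888 and 0.986 times in the progenitors and goblet-like 1, but 0.0743 times in goblet-like 2 (exact 95% interval 0.0605 to 0.0905). Tff3 ran between 0.779 and 0.982 times in these classes. Intervals cover counting error only. The counting software also differed, Cell Ranger 3.1.0 having been used on the first animal's reads and 5.0.1 on the second's, and cannot be told apart from the animal.

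Transcripts of other cell types were uneven across the goblet classes. The summed level of 8 Paneth markers measured was 5886 and 3917 CPM in goblet-like 1 of rat 1 and rat 2, 24644 and 117.2 CPM in goblet-like 2, and 571.4 and 760.0 CPM in the progenitors, with 5 or 6 of the 8 seen in each sum. In the goblet-like classes with high sums a few cells gave most of these UMIs. In goblet-like 2 of rat 1, 2 of the 41 cells gave 99.1% and the median cell held 1. In goblet-like 1 the cells with over 100 Paneth-marker UMIs, 1 in rat 1 and 6 in rat 2, gave 83.8% and 81.2%, and the median cell held 2 and 5. In the progenitors such cells, 5 in rat 1 and 1 in rat 2, gave 27.1% and 43.5%, and the median cell held 2 and 11. The summed level of 4 blood markers was 319.3 and 63.0 CPM in goblet-like 1 against 4618 and 1825 CPM in goblet-like 2. That of 7 enterocyte markers was 2362 and 1303 CPM against 5201 and 5279 CPM, and 103084 and 80503 CPM in enterocyte-like cells. Without the Paneth-rich cells Zg16 lay at 3.06 in goblet-like 2 against goblet-like 1 (edgeR adjusted p = 0.050, just over the threshold). The part of blood and enterocyte transcripts in that difference was not tested.

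The genes outside the member list whose pattern over the 8 classes was most like a member's were found by Pearson's r of log2(CPM + 1), taking the lower of the rats' values among 2525 genes. Members were left out of this ranking and are given apart. Of the ranked genes, Zg16 and Muc2 were each most like Capn9 (r = 0.992 and 0.983), a calpain, and Fer1l6 (0.989 and 0.971), followed by Sytl2 for Zg16 (0.938) and Wasl for Muc2 (0.939). Among the members, Zg16 and Muc2 had an r of 0.990 with each other, Clca1 and Spink4 had 0.935 and Fcgbp and Zg16 had 0.915, so that Muc2 was closer to Zg16, and Clca1 to Spink4, than to any ranked gene. Fcgbp was most like Creb3l4 (0.926), Sytl2 (0.917), a Rab27 effector of granule traffic, and Spdef (0.914). Clca1 was most like Rep15 (0.922), Golph3l (0.919) and Htra4 (0.905), and Spink4 like Rasd2 (0.95), Mcemp1 (0.946) and Rep15 (0.936). Agr2 was most like Itln1 (0.955), Foxa3 (0.936) and Hk2 (0.936), and Tff3 like Slc12a8 (0.960), Ramp1 (0.947) and Bace2 (0.946). Agr2 had its lowest r with Muc2 (0.619). Capn9, Rep15, Foxa3 and Spdef were among the genes that named the goblet-like clusters, so their likeness was partly built in, and each r rests on 8 classes of 1 animal.

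Genes that make, modify and release mucins were described as fixed lists. Against enterocyte-like cells, goblet-like cells were higher in 16 and lower in 2 of 21 tested genes of mucin O-glycosylation, with a median log2 fold change of 2.41 against 0.145 over all genes tested. Of all genes, 10.1% were higher and 11.2% lower in this comparison. The leading ones were Galnt5 (7.24 ± 0.88, edgeR adjusted p = 6.2e-05) and Galnt12 (3.53 ± 0.42, 6.1e-05), which start O-glycan chains, and B3gnt7 (3.95 ± 0.93, 0.0074) and Gcnt1 (3.60 ± 0.99, 0.019), which extend and branch glycans. Of 15 genes of granule traffic and release, 8 were higher and 0 lower (median 5.76), among them Mlph (8.53 ± 0.86, edgeR adjusted p = 3e-05), Rab27a (7.84 ± 1.00, 8.9e-05) and Sytl2 (7.57 ± 0.98, 0.00013), which act on granule transport. Syt7, a calcium sensor of exocytosis, passed too, with 0 UMIs in enterocyte-like cells of either rat and 8 and 3 UMIs in goblet-like 1 and 10 and 26 UMIs in goblet-like 2. Of 14 genes of mucin folding and assembly, 7 were higher and 1 lower (median 1.32), led by Ern2 (6.88 ± 0.71, edgeR adjusted p = 7e-05), a stress sensor of mucous cells. Of 12 other secreted proteins of goblet cells, 6 were higher and 1 lower (median 3.43), among them Reg4 (9.39 ± 1.03, edgeR adjusted p = 3.8e-05) and Itln1 (8.62 ± 1.82, 0.0035), a lectin. Muc13, a membrane mucin and the single other mucin tested, lay at -0.17.

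Some of these genes also parted the goblet-like classes. In goblet-like 2 against goblet-like 1, the folding genes Pdia4 (-2.38 ± 0.60, edgeR adjusted p = 0.030), Hsp90b1 (-1.81 ± 0.53, 0.047) and Hyou1 (-1.78 ± 0.45, 0.032) were lower, 3 of 14, and 0 were higher. Pdia4 measured 89.95 and 136.6 CPM in goblet-like 1 and 23.8 and 6.51 CPM in goblet-like 2. The median log2 fold change of this list was -0.887, against -0.223 over all genes. The granule genes Syt7 (2.97 ± 0.72, edgeR adjusted p = 0.031) and Stx3 (2.62 ± 0.75, 0.043), a syntaxin, were higher, 2 of 15 (median 1.5). In O-glycosylation the sialyltransferase St3gal4 was higher (2.51 ± 0.57, edgeR adjusted p = 0.024) and the CMP-sialic acid transporter Slc35a1 lower (-2.11 ± 0.53, 0.032), 1 of 21 genes in either direction (median 0.0), a share near the 4.43% and 5.59% of all genes. Of the 12 other secreted proteins, Pigr (-3.76 ± 0.99, edgeR adjusted p = 0.035), the receptor that carries immunoglobulins across the epithelium, Wfdc2 (-2.95 ± 0.87, 0.048) and Clca2 were lower, and Clca4 (2.97 ± 0.79, 0.035) was higher. Clca2 had 256 and 117 UMIs in goblet-like 1 and 0 in goblet-like 2 of both rats. Clca4 stood at 1254 and 1669 CPM in enterocyte-like cells and at 187.5 and 62.7 CPM in goblet-like 2.

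In the progenitors against goblet-like cells the granule list had the most genes called of these lists, with 7 of 15 lower and 0 higher (median log2 fold change -1.81, against 0.149 over all genes, of which 5.45% were lower and 10.5% higher), among them Sytl2 (-2.98 ± 0.79, edgeR adjusted p = 0.030), Rab27a (-2.70 ± 0.78, 0.035) and Mlph (-2.57 ± 0.63, 0.023). Of the other secreted proteins 4 of 12 were lower, Guca2a (-4.64 ± 1.21, edgeR adjusted p = 0.025), which encodes guanylin, Reg4 (-4.42 ± 0.81, 0.0095), Nucb2 (-1.97 ± 0.55, 0.034) and Lgals4 (-1.71 ± 0.53, 0.043). Of the O-glycosylation genes 3 of 21 were lower, among them St3gal4 (-3.31 ± 0.57, edgeR adjusted p = 0.0082) and B3gnt7 (-3.30 ± 0.99, 0.039). The 14 folding genes had a median of -0.123. Against goblet-like 1 alone 0 of the 15 granule genes passed, as did 0 of all 8801 genes. Against goblet-like 2 alone 10 of the 15 were lower, beside 14% of all genes, and 2 of the 14 folding genes were higher, beside 17.6%. Against stem-like cells, where 0.693% of all genes passed as higher, the progenitors were higher in Reg4, Clca2 and Nucb2 of the secreted proteins, Ern2 of the folding genes (4.80 ± 0.82, edgeR adjusted p = 0.025), Galnt5 of O-glycosylation (3.86 ± 0.80, 0.045) and Mlph and Rab3d of granule traffic (4.13 ± 0.77, 0.026, and 2.87 ± 0.49, 0.017).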

How the data were processed

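The authors deposited raw UMI counts per gene and barcode for 2 libraries, 1 per rat, aligned to rn6, with Cell Ranger 3.1.0 (rat 1) or 5.0.1 (the other animal) per the file headers. Cells with over 200 and under 5800 genes, over 5000 UMIs and at most 40% mitochondrial UMIs were clustered with Seurat 5.3.0 (2000 variable genes, 20 principal components, resolutions 0.3 and 0.5) on both rats integrated. The members and the genes of the fixed lists (90 rows) were kept out of clustering and naming, and clusters rich in Ptprc (over 25% of cells) or in haemoglobin transcripts were removed. Thresholds for naming were chosen once the clusters had been seen. The members and lists were chosen with earlier results of these data known.

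UMI counts were summed per rat and class (16 sums) and tested over 8801 genes with edgeR 4.0.16 in R 4.3.3 (quasi-likelihood, TMM, Benjamini-Hochberg at 0.05). The pipeline was tested on simulated data. SEs are approximate, from the fold change and its F statistic, and values per rat are log2 CPM differences with no test. Each animal gave every class, so the rat pairs the sums: deviations of same-rat sums had a median r of 0.217 over 28 pairs (0.0835 to 0.452). Genes named from a list were the up to 4 with the largest change among those called with the same direction in both rats, and a few further list genes were chosen after their values were seen. Likeness used genes with at least 50 UMIs in the goblet-like sum of each rat. Intervals are exact (95%) and cover counting error only. Doublets called with scanpy 1.11.5 (116 and 2 cells, so that the caller may not have worked in rat 2) were kept. DESeq2 1.42.0, the rat as a block, other filters, clusterings and cell removals were alternatives.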

Additional observations from a re-analysis of the deposited data

Results flagged for a closer look

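Barcodes outside the retained cells also carried the members. Of barcodes with 500 to 5000 UMIs, 120 of 5816 in rat 1 (2.06%) and 36 of 4439 in rat 2 (0.811%) had over 5% of their UMIs from the members. This was flagged as a signal in barcodes outside the main comparisons (those over 1000 UMIs entered 1 alternative), above the enterocyte-like level, where 1 of 3624 cells (0.0276%) and 3 of 1109 cells (0.271%) did so. Enterocyte-like clusters were named with a ceiling on goblet markers, while these barcodes may hold any cell type, so that difference was partly built in.

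An unnamed cluster led by Apoa4, Zg16, Apoa1 and Tff3 was flagged for the same reason. In 22 of its 154 cells of rat 1 (14.3%) and 16 of its 42 cells of rat 2 (38.1%) the members gave over 5% of UMIs, up to 22.2% and 30.7%. The doublet caller marked 85 of these cells in rat 1 and 0 in rat 2.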

How the results depend on the processing

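The settings on the UMI minimum, on kept or removed cells and on top cells were chosen after seeing the data. Leaving out a rat gave values without a test, and EEC-like cells formed no cluster with all variable genes or with called doublets removed. The calls of all 7 members against enterocyte-like cells and against the other classes held in every setting tested. In goblet-like cells against the other classes 1250 genes were called, and 1999 under the replicate block (rat). In progenitors against goblet-like cells the count was 1404, 2721 without TMM, 2749 with the block, 2195 merged without integration and 895 with cells lacking epithelial transcripts kept. There Agr2 (-0.29) changed sign without TMM (0.33), with the block (0.089) and without rat 1 (-0.70 to 1.76 over the rats left out), and Clca1 (0.20) with no upper gene limit (-0.65), 20% mitochondrial UMIs (-0.25), all variable genes (-0.39), resolution 1.0 (-0.39), doublets removed (-0.40) and a minimum of 1000 UMIs (-0.19). In progenitors against stem-like cells 61 genes and 3 members were called, against 118 and 6 by DESeq2, 232 and 7 without a filter on low counts, 137 and 7 with the block, 26 and 1 at 20% mitochondrial UMIs and 95 and 5 at 1000 UMIs. In goblet-like 2 against goblet-like 1 there were 882 genes and 2 members. Genes numbered 1788 without TMM, 1515 without the filter, 2106 with the block, 579 with all variable genes, 2142 merged, 1594 at 1000 UMIs and 468 with cells kept. Members numbered 4 by DESeq2, without the filter and merged, 6 with the block, and 1 without TMM, at 20% mitochondrial UMIs, with cells kept, with Paneth-rich cells removed and with the top cell removed. In progenitors against goblet-like 1 the 0 genes became 38 by DESeq2, 260 without the filter, 105 with the block, 5 at 20% mitochondrial UMIs, 27 merged and 6 at 1000 UMIs, with 1 member by DESeq2, without the filter and under the block. In progenitors against goblet-like 2 Agr2 (0.34) ran from -0.081 without rat 2 to 3.57 without rat 1, Fcgbp lost its call without TMM (adjusted p = 0.066) and Spink4 with no upper gene limit (0.14). In EEC-like against enterocyte-like cells 1462 genes became 2653 without the filter, and 2 members became 4 without it and at 1000 UMIs. The median member share of goblet-like 1 (14.45%) was 12.8% merged, and that of goblet-like 2 (39.98%) was 38.6% with no upper gene limit, 39.05% at 20% mitochondrial UMIs, 39.0% with all variable genes, at resolution 1.0 and with doublets removed, and 31.9% at 1000 UMIs. The share of enterocyte-like cells with a UMI rose without thinning, from 9.34% to 23.6% for Muc2, 18.7% to 44.8% for Fcgbp, 35.7% to 69.5% for Zg16, 7.15% to 16.3% for Clca1, 33.9% to 65.7% for Tff3, 11.6% to 26.6% for Agr2 and 1.03% to 2.66% for Spink4, since deeper cells were counted whole. The shares in this section are means of both rats. The thinned ones come from a second random draw, so they differ slightly from those given by rat. For Muc2 the thinned share was 11.3% at 20% mitochondrial UMIs and at 1000 UMIs. For Fcgbp it was 18.4% with no upper gene limit, 20.7% at 20% mitochondrial UMIs, 18.3% with all variable genes, 18.2% merged, 18.9% at resolution 1.0 and 20.0% at 1000 UMIs. Beyond the calls given here and in the report, the block changed no call of a member. Other causes were not tested.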
